A study of Danio rerio with 20 samples.

Results

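HepABC zebrafish carry an activated Xenopus β-catenin under the hepatocyte promoter fabp10a and develop hepatocellular carcinoma (HCC), and here their tumor-bearing livers were compared with the livers of non-transgenic siblings over all genes measured. The fish were chosen by their labels. Those labelled with the line fabp10a-pt-beta-catenin and a diagnosis of HCC formed the HepABC group (5 fish, 317E5, 317E6, 317E9, 317E10 and 317E11), and those labelled Wild Type with no HCC formed the NonTg group (5 fish, 317C1, 317C2, 317C4, 317C5 and 317C8). These 10 fish are part of the 20 bulk libraries of the series, whose other fish belong to a CreLox experiment at another age. Both groups were 6 months old and had no treatment as larvae, and the study describes them as males. The transgene (fabp10a:Xla.Ctnnb1, with a cryaa:Venus eye marker) is driven in hepatocytes, and the study describes it as present in all hepatocytes of HepABC fish. One part of each dissected liver went to histology and the other part to RNA, and no separation of tumor from the tissue around it is described. Genotype and diagnosis change together here, so an effect of the transgene and an effect of the tumor cannot be told apart.

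The liver makes most plasma proteins, keeps blood glucose steady through glycogen and gluconeogenesis, burns and packs fat, makes bile acids and cholesterol, breaks down amino acids and purines, and clears drugs and steroids with cytochrome P450 and conjugating enzymes. β-catenin carries the canonical Wnt signal. When it escapes its destruction complex it enters the nucleus, binds TCF and LEF factors and turns on genes that include feedback inhibitors of the pathway itself, and mutations that stabilize it are among the common driver mutations of human HCC. In the mammalian liver β-catenin also sets the program of hepatocytes around the central vein, which includes glutamine synthetase and several P450 enzymes. Roles of genes are given below as known in vertebrates, mostly from mammals.

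Strand-specific mRNA libraries were sequenced as read pairs, 1 library per fish, and the authors deposited unnormalized counts of reads per gene. Library totals ranged from 24832450 to 37994885 counts. The top 10 genes by count held 11.4% to 15.5% of the counts in HepABC fish, against 22.8% to 26.1% in NonTg fish, and between 20556 and 21518 genes had a count in HepABC fish, against 19474 to 20087 in NonTg fish. Levels are given as CPM, counts scaled to a common library total, after scaling by TMM (edgeR's factors for differences in composition, 1.09 to 1.45 in HepABC fish, against 0.703 to 0.809 in NonTg fish), and values of single fish follow the order of names given above. All 7 hepatocyte markers examined (fabp10a, tfa, apoa1b, apoa2, hpx, fetub and ambp) were present in every fish and all 7 were lower in HepABC fish, with a summed level of 32953 to 67077 CPM in HepABC fish, against 197088 to 257731 CPM in NonTg fish. Most of these markers are genes of secreted plasma proteins, so this decrease and that of plasma protein genes below are not separate results. Bulk RNA cannot tell fewer cells of a type apart from less RNA per cell, which applies to every result here.

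Of 15864 genes tested by edgeR's quasi-likelihood test, 5342 (33.7%) were significantly dysregulated at a Benjamini-Hochberg adjusted p-value under 0.05, of which 2766 (17.4% of the genes tested) were higher and 2576 (16.2%) lower in HepABC fish. In the text a gene is called when it passes this threshold, and these percentages are the background for every count of genes below. In 1926 genes (12.1%) every HepABC fish was above every NonTg fish, and in 1826 (11.5%) every HepABC fish was below. Many genes below, though not all, were named only if they were called and the groups did not overlap. The separation of such genes was set by that choice. The p-values measure the spread between these fish, which are separate animals. The median log2 fold change over all genes was -0.00101 after TMM scaling and 0.87 when scaled by library size alone, where 7955 genes were higher and 854 lower. Changes are therefore relative to the bulk of genes, and most lists below carry their counts under library size alone. The balance of higher and lower genes turned there for the destruction complex, pericentral genes, amino acid breakdown, purine breakdown, glycolysis and fatty acid synthesis. It also turned for bile acids, iron, hepatocyte transcription factors, p53 targets, ER chaperones and protein translocation. The TCA cycle, circadian clock and fatty acid binding protein lists turned as well. NonTg fish 317C1 and 317C2 lay apart from the other NonTg fish on the second principal component, at 75.2 and 64.0, against -61.5 to -37.6 for 317C4, 317C5 and 317C8, and without this pair 4657 genes were called (2392 higher and 2265 lower).

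**Figure D1:**
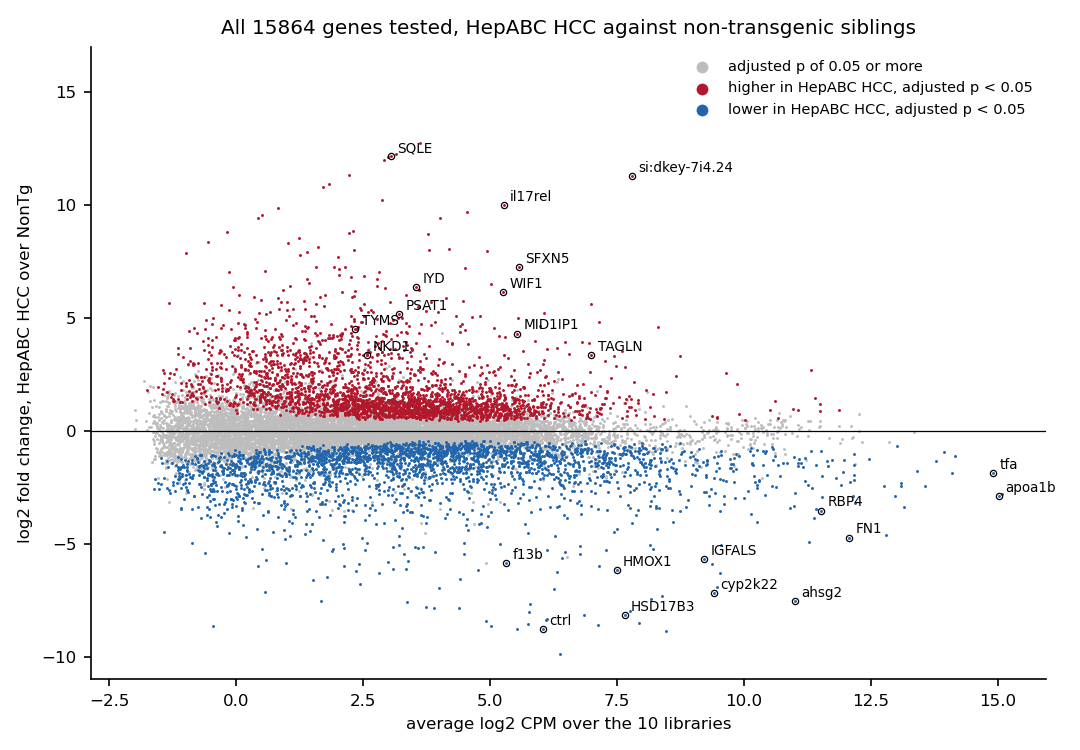
Each point is 1 of the 15864 genes tested, with the average log2 CPM over the 10 libraries on the x axis and the log2 fold change of HepABC HCC livers over NonTg livers on the y axis. Red genes were called higher in HepABC fish (2766), blue genes lower (2576) and grey genes were not called, and the circled genes carry their symbols.

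Genes nearly absent from NonTg livers made up the top of the list. The gene si:dkey-7i4.24 (ENSDARG00000096906), to which no function is assigned here, had 477, 473, 37.2, 241 and 994 CPM in HepABC fish, against 0.342, 0, 0.210, 0.299 and 0.0368 CPM in NonTg fish. si:dkey-7i4.24 changed by 11.28 ± 1.13 (SE here and below) on the log2 scale (adjusted p = 8.7e-05), with the lowest HepABC fish, 317E9, still far above all NonTg fish. il17rel (ENSDARG00000089131), related by name to the receptors of the interleukin 17 family, had 40.1, 96.4, 101, 69.4 and 79.02 CPM in HepABC fish, against 0, 0, 0.210, 0.2 and 0 CPM in NonTg fish. il17rel changed by 9.99 ± 0.78 on the log2 scale (adjusted p = 2.9e-05), and its HepABC values lay within a narrow band. SFXN5 (ENSDARG00000026137), a sideroflexin (a mitochondrial membrane carrier), had 144, 108, 48.9, 59.09 and 114 CPM in HepABC fish, against 0.380, 0.130, 0.263, 1.85 and 0.516 CPM in NonTg fish. SFXN5 changed by 7.25 ± 0.71 on the log2 scale (adjusted p = 8.3e-05), and the groups were far apart in every fish. At the other end, HSD17B3 (ENSDARG00000023287), which in mammals reduces androstenedione to testosterone, had 3.25, 0.128, 3.08, 0.227 and 0.365 CPM in HepABC fish, against 407, 354, 569.97, 96.6 and 578 CPM in NonTg fish. HSD17B3 changed by -8.16 ± 1.11 on the log2 scale (adjusted p = 0.000426). The lowest NonTg fish for HSD17B3, 317C5, was still well above the highest HepABC fish.

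Wnt inhibitors and TCF factors, taken as 1 list, went both ways, while WIF1, NKD1, LEF1 and AXIN2 were all higher and SFRP1 was lower. In the list of Wnt feedback inhibitors and TCF factors 5 of 14 tested genes were higher, 4 were lower and 5 were not called (median log2 fold change -0.10, and with library size alone 6 higher and 2 lower), so the list as a whole was split, and with genes of at least 10 counts in every library 1 was higher and 3 lower. The secreted Wnt inhibitor WIF1 (ENSDARG00000005541) had 35.1, 122, 51.1, 52.4 and 117 CPM in HepABC fish, against 1.56, 2.56, 0.526, 0.2 and 0.405 CPM in NonTg fish, with no overlap between the groups. WIF1 changed by 6.15 ± 0.73 on the log2 scale (adjusted p = 0.000208). NKD1 (ENSDARG00000020053), a cytoplasmic brake on the pathway, had 15.4, 12.9, 4.34, 13.3 and 7.37 CPM in HepABC fish, against 0.570, 1.73, 0.315, 1.65 and 0.995 CPM in NonTg fish (log2 fold change 3.34 ± 0.50, adjusted p = 0.000756), again with every HepABC fish higher. The transcription factor LEF1 (ENSDARG00000031894), which β-catenin binds on DNA, had 2.40, 4.21, 1.65, 0.948 and 2.37 CPM in HepABC fish, against 0.0761, 0.0866, 0, 0 and 0 CPM in NonTg fish. Every NonTg library held at most 3 counts of LEF1, which makes it at least 17.5-fold higher against a floor of 3 counts per library, or 13.9-fold without 317E6 (adjusted p = 0.000332).

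AXIN2 (ENSDARG00000100149), a scaffold of the destruction complex and a general readout of Wnt signaling, had 26.2, 55.7, 6.07, 18.2 and 32.1 CPM in HepABC fish, against 3.57, 5.93, 6.52, 5.49 and 11.3 CPM in NonTg fish. AXIN2 changed by 2.07 ± 0.51 on the log2 scale (adjusted p = 0.00933). The groups overlapped for AXIN2 through HepABC fish 317E9, which lay below NonTg fish 317C4 and 317C8, and the call was lost without 317C1 and 317C2 (adjusted p = 0.0556). In contrast, SFRP1 (ENSDARG00000035521), a secreted Wnt antagonist, was lower, with 0.944 to 2.33 CPM in HepABC fish, against 5.89 to 8.58 CPM in NonTg fish. SFRP1 changed by -2.56 ± 0.29 on the log2 scale (adjusted p = 0.000173). The zebrafish gene for β-catenin itself, CTNNB1 (ENSDARG00000014571), had 279, 188, 297, 250.1 and 179 CPM in HepABC fish, against 110.5, 116, 106, 84.6 and 99.8 CPM in NonTg fish. CTNNB1 changed by 1.21 ± 0.20 on the log2 scale (adjusted p = 0.00124), with all HepABC fish higher. The Xenopus transgene is another sequence. The study aligned these reads to the zebrafish genome and describes adding the Xenopus sequence for its single-cell libraries. Whether transgene reads were counted under CTNNB1 was not tested. In the short list of β-catenin and its destruction complex 1 of 8 tested genes was higher, 2 were lower and 5 were not called (median log2 fold change 0.24, and with library size alone 6 higher and 0 lower), with 1 higher and 0 lower without 317C1 and 317C2.

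The study names 6 Wnt targets. They match 8 identifiers here, because its myca and glula were matched without their final letter, and MYC and GLUL each match a pair. Each pair can thus hold a copy that the study did not name. Among these identifiers, 3 of 8 tested genes were higher and 5 were not called (median log2 fold change 1.48, and with library size alone 6 higher and 0 lower). Some of the targets were chosen by the study on these same livers, so this count is no independent evidence of direction. JUN (ENSDARG00000043531), a subunit of the AP-1 transcription factor, had 33.4 to 101 CPM in HepABC fish, against 7.14 to 26.8 CPM in NonTg fish. JUN changed by 2.02 ± 0.41 on the log2 scale (adjusted p = 0.00384). The proto-oncogene MYC is carried by a pair of identifiers, and neither was called by edgeR with TMM. ENSDARG00000045695 had 5.33, 2.11, 3.05, 5.4 and 2.35 CPM in HepABC fish, against 0.570, 0.606, 0.841, 3.14 and 1.8 CPM in NonTg fish (adjusted p = 0.0573), and it was called higher by DESeq2 (adjusted p = 0.0222), among genes of at least 10 counts in every library (0.0409), with library size alone (0.00515) and without 317C5 (0.0135). ENSDARG00000007241 had 78.7, 56.5, 17.6, 44.8 and 49.3 CPM in HepABC fish, against 47.3, 404, 13.04, 66.3 and 30.7 CPM in NonTg fish (adjusted p = 0.279), with NonTg fish 317C2 far above the rest. GLUL, glutamine synthetase, was likewise not called by edgeR with TMM under either identifier. The abundant copy, ENSDARG00000099776, had 69.01, 189, 188, 122 and 334 CPM in HepABC fish, against 289.9, 579, 145, 267 and 334 CPM in NonTg fish (adjusted p = 0.16), and the other, ENSDARG00000100003, had 8.56, 24.7, 31.1, 19.1 and 105 CPM in HepABC fish, against 16.998, 11.2, 14.6, 14.5 and 6.93 CPM in NonTg fish (adjusted p = 0.0543). The lesser copy was called higher by DESeq2 (adjusted p = 0.0183), among genes of at least 10 counts in every library (0.0412), with library size alone (0.00482) and without 317E5 (0.0194). In the list of pericentral hepatocyte genes of mammals, 1 of 13 tested genes was higher, 5 were lower and 7 were not called (median log2 fold change -0.80, and with library size alone 3 higher and 0 lower), with 2 higher and 2 lower without 317C1 and 317C2.

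Cell cycle genes rose together. Of 88 tested genes of mitosis and DNA replication, 78 (88.6%, against 17.4% of all genes) were higher, 10 were not called, and the median log2 fold change was 2.83. Mitosis and spindle genes had 37 of 40 higher (median 3.11) and DNA replication and nucleotide supply 41 of 48 (median 2.6). CDK1 (ENSDARG00000087554), the kinase that starts mitosis, had 9.70, 24.3, 9.57, 8.66 and 15.6 CPM in HepABC fish, against 0.266, 0.433, 2.79, 2.55 and 0.700 CPM in NonTg fish. CDK1 changed by 3.35 ± 0.64 on the log2 scale (adjusted p = 0.0027), and no NonTg fish reached the lowest HepABC fish. The proliferation marker mki67 (ENSDARG00000091150) had 11.8 to 37.8 CPM in HepABC fish, against 0.494 to 8.43 CPM in NonTg fish. mki67 changed by 2.57 ± 0.68 on the log2 scale (adjusted p = 0.0141). Both genes were higher in NonTg fish 317C4 and 317C5 than in the other NonTg fish.

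Of the replication genes, PCNA (ENSDARG00000054155), the sliding clamp of DNA polymerases, had 52.1, 97.1, 18.3, 24.3 and 54.1 CPM in HepABC fish, against 6.16, 7.32, 11.5, 10.8 and 6.04 CPM in NonTg fish. PCNA changed by 2.56 ± 0.44 on the log2 scale (adjusted p = 0.00149). TYMS (ENSDARG00000042894), which makes thymidylate for DNA, had 2.63 to 16.4 CPM in HepABC fish, against 0.184 to 0.578 CPM in NonTg fish. TYMS changed by 4.51 ± 0.51 on the log2 scale (adjusted p = 0.000166). The spindle checkpoint gene MAD2L1 (ENSDARG00000004713) had 4.65 to 20.6 CPM in HepABC fish, against 0.0380 to 1.05 CPM in NonTg fish. MAD2L1 changed by 4.17 ± 0.68 on the log2 scale (adjusted p = 0.00113). HepABC fish 317E6 had the highest value for CDK1, PCNA, TYMS and MAD2L1, and the second highest for mki67. Together the mitosis and replication genes took 0.0945 ± 0.0520% of counts in HepABC fish, against 0.0111 ± 0.00315% in NonTg fish.

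**Figure D2:**
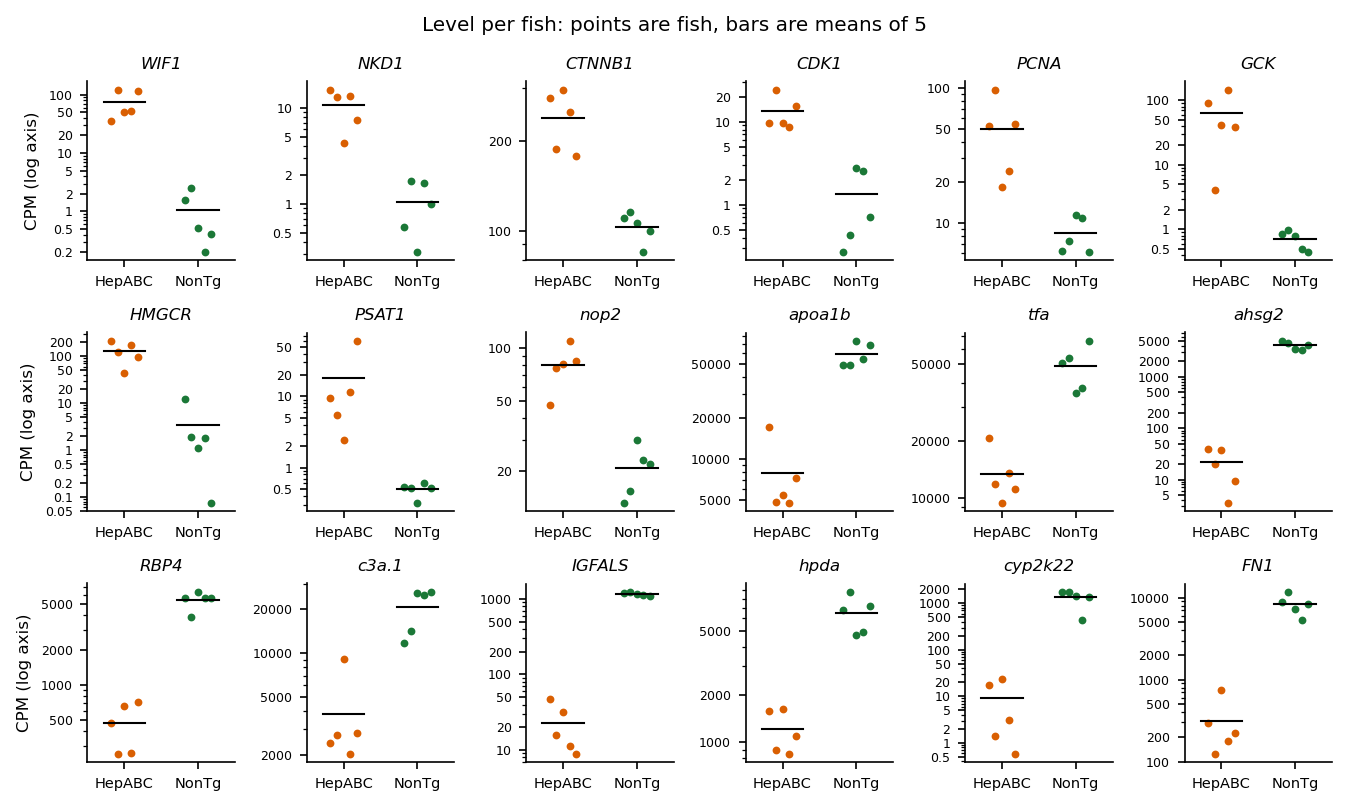
CPM of 18 genes on log axes, with 1 point per fish, HepABC HCC fish to the left of NonTg siblings in each panel, and a bar at the mean of 5 fish. HepABC fish lie above all NonTg fish for the 9 genes from WIF1 to nop2 and below all NonTg fish for the 9 genes from apoa1b to FN1.

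Plasma protein genes formed the broadest decrease. Over 4 lists of secreted plasma proteins, 83 of 106 tested genes (78.3%, against 16.2% of all genes) were lower, 1 was higher and 22 were not called, with a median log2 fold change of -1.90. In 75 of them every HepABC fish was below every NonTg fish. With library size alone 62 were lower and 7 higher. The decrease ran through every class. Among apolipoproteins and lipoprotein assembly genes 14 of 21 tested genes were lower and 7 were not called (median log2 fold change -1.91, and with library size alone 2 higher and 11 lower). Among carrier proteins and protease inhibitors 25 of 27 tested genes were lower and 2 were not called (median log2 fold change -2.07, and with library size alone 0 higher and 21 lower). In coagulation and fibrinolysis 1 of 27 tested genes was higher, 23 were lower and 3 were not called (median log2 fold change -1.62, and with library size alone 2 higher and 16 lower). In complement 21 of 31 tested genes were lower and 10 were not called (median log2 fold change -1.73, and with library size alone 3 higher and 14 lower).

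The apolipoproteins of high-density lipoprotein were among the most abundant transcripts of both groups. apoa1b (ENSDARG00000101324) had 17378, 4857, 5471, 4741 and 7234 CPM in HepABC fish, against 49509, 49371, 74386, 54527 and 68561 CPM in NonTg fish. apoa1b changed by -2.90 ± 0.39 on the log2 scale (adjusted p = 0.000419). apoa2 (ENSDARG00000015866) had 5637 to 11804 CPM in HepABC fish, against 46521 to 76659.8 CPM in NonTg fish. apoa2 changed by -2.80 ± 0.27 on the log2 scale (adjusted p = 7.2e-05). For apoa1b the nearest HepABC fish, 317E5, lay well below the lowest NonTg fish. apoc1 (ENSDARG00000092170), carried on several lipoprotein classes, had 2355 to 13632 CPM in HepABC fish, against 23948 to 34903 CPM in NonTg fish. apoc1 changed by -1.89 ± 0.39 on the log2 scale (adjusted p = 0.00413). Apolipoprotein F, apof (ENSDARG00000090980), which in humans inhibits cholesteryl ester transfer, had 2.42 to 42.7 CPM in HepABC fish, against 214 to 408 CPM in NonTg fish. apof changed by -4.49 ± 0.68 on the log2 scale (adjusted p = 0.000742).

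Among carriers, tfa (ENSDARG00000016771), transferrin, had 20664, 11901, 9439, 13571 and 11224 CPM in HepABC fish, against 50389.5, 53908, 35159, 37387 and 66137 CPM in NonTg fish. tfa changed by -1.86 ± 0.27 on the log2 scale (adjusted p = 0.000629). RBP4 (ENSDARG00000101199), which carries retinol, had 466, 253, 655, 261 and 713 CPM in HepABC fish, against 5664, 3878, 6397, 5607 and 5650.2 CPM in NonTg fish. RBP4 changed by -3.53 ± 0.35 on the log2 scale (adjusted p = 8.3e-05). Fetuin-A, ahsg2 (ENSDARG00000069293), which binds mineral in plasma, had 39.7, 19.95, 37.9, 3.44 and 9.15 CPM in HepABC fish, against 5081, 4519, 3423, 3406 and 4089 CPM in NonTg fish. ahsg2 changed by -7.54 ± 0.70 on the log2 scale (adjusted p = 6.2e-05). The groups did not overlap for tfa, and RBP4 and ahsg2 were named on the condition that theirs did not. The heme carrier hpxa (ENSDARG00000012609) ranged widely among HepABC fish, with 2607, 209.8, 3682, 562 and 928 CPM in HepABC fish, against 16842, 13849.5, 21746, 10844 and 20094 CPM in NonTg fish. hpxa changed by -3.38 ± 0.68 on the log2 scale (adjusted p = 0.0034), and was lowest in 317E6.

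In the clotting system, FGB (ENSDARG00000008969), the β chain of fibrinogen, had 1684, 888, 4591, 1256 and 1094 CPM in HepABC fish, against 10783, 10663, 19102, 14796 and 16231 CPM in NonTg fish (log2 fold change -2.91 ± 0.46, adjusted p = 0.000967), and factor VII, F7 (ENSDARG00000075827), which starts clotting with tissue factor, had 16.96 to 51.3 CPM in HepABC fish, against 188 to 528 CPM in NonTg fish (log2 fold change -3.74 ± 0.37, adjusted p = 8.7e-05). The carrier subunit of factor XIII, f13b (ENSDARG00000101353), had 1.01 to 1.91 CPM in HepABC fish, against 17.8 to 132 CPM in NonTg fish. f13b changed by -5.87 ± 0.52 on the log2 scale (adjusted p = 5.2e-05). The single gene higher was TFPI (ENSDARG00000034718), an inhibitor of that start step, with 31.8, 38.61, 48.5, 44.7 and 35.5 CPM in HepABC fish, against 23.04, 24.04, 19.8, 27.2 and 15.4 CPM in NonTg fish. TFPI changed by 0.86 ± 0.20 on the log2 scale (adjusted p = 0.00689). Of the complement genes, the central component c3a.1 (ENSDARG00000012694) had 2387, 2711, 9095, 2009.6 and 2813 CPM in HepABC fish, against 11715, 14099, 26112, 24988 and 26492 CPM in NonTg fish. c3a.1 changed by -2.44 ± 0.46 on the log2 scale (adjusted p = 0.00243), with 317E9 well above the other HepABC fish and 317C1 and 317C2 the lowest NonTg fish. Its copy c3a.2 (ENSDARG00000087359) had 247 to 476 CPM in HepABC fish, against 2795 to 6943 CPM in NonTg fish. c3a.2 changed by -3.85 ± 0.33 on the log2 scale (adjusted p = 5.0e-05). c9 (ENSDARG00000016319), which forms the pore of the membrane attack complex, had 391 to 1979.95 CPM in HepABC fish, against 4786 to 10807 CPM in NonTg fish. c9 changed by -2.90 ± 0.41 on the log2 scale (adjusted p = 0.000513). In acute phase genes and their regulators 1 of 16 tested genes was higher, 8 were lower and 7 were not called (median log2 fold change -0.99, and with library size alone 1 higher and 5 lower), and the pentraxin crp3 (ENSDARG00000042613) had 176, 41.5, 334, 72.1 and 87.1 CPM in HepABC fish, against 3015, 2355, 2769, 2063 and 1444 CPM in NonTg fish. crp3 changed by -4.04 ± 0.55 on the log2 scale (adjusted p = 0.000448).

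Endocrine functions of the liver were mostly lower as well. In the growth hormone and IGF axis 1 of 17 tested genes was higher, 9 were lower and 7 were not called (median log2 fold change -1.21, and with library size alone 1 higher and 7 lower). IGFALS (ENSDARG00000037836), the acid-labile subunit that holds IGF in plasma, had 47.2, 15.98, 31.5, 11.2 and 8.76 CPM in HepABC fish, against 1187, 1252, 1178, 1139.6 and 1080.04 CPM in NonTg fish. IGFALS changed by -5.67 ± 0.50 on the log2 scale (adjusted p = 5.2e-05), and its NonTg values were nearly equal. IGF1 (ENSDARG00000094132) itself had 17.7, 0.984, 5.51, 1.53 and 12.3 CPM in HepABC fish, against 79.5, 139, 22.4, 25.1 and 43.5 CPM in NonTg fish. IGF1 changed by -3.03 ± 0.82 on the log2 scale (adjusted p = 0.0154), and the call was lost without 317C1 and 317C2, the pair of NonTg fish with the highest IGF1 (adjusted p = 0.0899). For thyroid hormone metabolism 2 of 12 tested genes were higher, 8 were lower and 2 were not called (median log2 fold change -1.58, and with library size alone 2 higher and 4 lower). The deiodinase DIO1 (ENSDARG00000042112) had 24.9 to 86.2 CPM in HepABC fish, against 184 to 296 CPM in NonTg fish. DIO1 changed by -2.39 ± 0.34 on the log2 scale (adjusted p = 0.000543). IYD (ENSDARG00000076056), which recovers iodide from iodotyrosines, had 23.9, 9.55, 35.05, 38.98 and 7.17 CPM in HepABC fish, against 0.152, 0.476, 0.0526, 0.749 and 0 CPM in NonTg fish (log2 fold change 6.35 ± 0.87, adjusted p = 0.000448), so that these members of one pathway moved apart.

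In vitellogenins and estrogen receptors 4 of 9 tested genes were higher, 1 was lower and 4 were not called (median log2 fold change 1.48, and with library size alone 5 higher and 1 lower). Vitellogenins are yolk precursors that the female liver makes under estrogen. vtg1 (ENSDARG00000092233) had 6.89, 0.601, 117, 12.5 and 0.913 CPM in HepABC fish, against 0.0761, 0.303, 0.105, 0 and 0.0368 CPM in NonTg fish. vtg1 changed by 8.003 ± 1.68 on the log2 scale (adjusted p = 0.00433). vtg3 (ENSDARG00000016448) had 101, 6.85, 1.74, 0.824 and 24.8 CPM in HepABC fish, against 0.114, 0, 0.105, 0.0998 and 0 CPM in NonTg fish. Every NonTg library held at most 3 counts of vtg3, which makes it at least 204-fold higher against the floor of 3 counts per library, or 64.6-fold without 317E5 (adjusted p = 0.00206). The levels were uneven, with 317E9 highest for vtg1 and 317E5 for vtg3, and limma voom did not call vtg1 (adjusted p = 0.0697). The whole list held 0.0257 ± 0.00958% of counts in HepABC fish, against 0.0104 ± 0.00468% in NonTg fish. These shares overlapped, as 317E11 (0.0143%) lay below 317C8 (0.0163%). Its summed level after TMM scaling also overlapped, at 99.6 to 353 CPM in HepABC fish, against 55.7 to 228 CPM in NonTg fish.

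More genes of detoxification enzymes were lower than higher. Over cytochrome P450 families 1 to 4, UDP-glucuronosyltransferases, glutathione S-transferases and sulfotransferases, 46 of 103 tested genes (44.7%) were lower, 8 were higher and 49 were not called, with a median log2 fold change of -1.03. With library size alone 26 were lower and 12 higher. Among the P450 genes 3 of 45 tested genes were higher, 21 were lower and 21 were not called (median log2 fold change -1.29, and with library size alone 5 higher and 11 lower), and among UDP-glucuronosyltransferases 2 of 28 tested genes were higher, 15 were lower and 11 were not called (median log2 fold change -1.29, and with library size alone 4 higher and 9 lower). For glutathione S-transferases 1 of 16 tested genes was higher, 6 were lower and 9 were not called (median log2 fold change -0.45, and with library size alone 1 higher and 4 lower), and for sulfotransferases 2 of 14 tested genes were higher, 4 were lower and 8 were not called (median log2 fold change -0.42, and with library size alone 2 higher and 2 lower).

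Members of the zebrafish CYP2K family went opposite ways. cyp2k22 (ENSDARG00000040433) had 17.3, 1.38, 23.3, 3.05 and 0.570 CPM in HepABC fish, against 1775, 1734, 1450.4, 443 and 1340.4 CPM in NonTg fish. cyp2k22 changed by -7.21 ± 1.09 on the log2 scale (adjusted p = 0.000768). cyp2k16 (ENSDARG00000102981) had 7.07 to 83.1 CPM in HepABC fish, against 0.476 to 3.44 CPM in NonTg fish. cyp2k16 changed by 3.996 ± 0.72 on the log2 scale (adjusted p = 0.00188). Separate groups were a condition for naming both. cyp2ad2 (ENSDARG00000021172), another abundant P450 of NonTg livers, had 139 to 469 CPM in HepABC fish, against 1283 to 1691 CPM in NonTg fish. cyp2ad2 changed by -2.26 ± 0.31 on the log2 scale (adjusted p = 0.000481). Of the conjugating enzymes, ugt5b4 (ENSDARG00000091916) had 1.96 to 6.16 CPM in HepABC fish, against 31.1 to 49.9 CPM in NonTg fish. ugt5b4 changed by -3.58 ± 0.33 on the log2 scale (adjusted p = 6.1e-05). gsta.2 (ENSDARG00000039832), an alpha-class glutathione transferase, had 0.742 to 1.3 CPM in HepABC fish, against 8.48 to 14.2 CPM in NonTg fish. gsta.2 changed by -3.53 ± 0.24 on the log2 scale (adjusted p = 1.6e-05), with near-equal values within each group.

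The Nrf2 antioxidant response was split, as 7 of 23 tested genes were higher, 7 were lower and 9 were not called (median log2 fold change 0.07, and with library size alone 12 higher and 4 lower), with 4 higher and 6 lower without 317C1 and 317C2. HMOX1 (ENSDARG00000027529), heme oxygenase, which opens the heme ring and also serves iron recycling, had 7.87, 4.14, 4.48, 2.33 and 5.84 CPM in HepABC fish, against 91.3, 97.5, 386, 134 and 1072 CPM in NonTg fish. HMOX1 changed by -6.17 ± 0.83 on the log2 scale (adjusted p = 0.000395), with NonTg fish 317C8 the highest. Peroxiredoxin 1 appears under a pair of identifiers that moved apart. The abundant copy, PRDX1 (ENSDARG00000025350), had 318, 276, 268, 214 and 190.5 CPM in HepABC fish, against 1166, 926, 857, 879.8 and 1037 CPM in NonTg fish (log2 fold change -1.94 ± 0.20, adjusted p = 0.000105), and the other, prdx1 (ENSDARG00000058734), had 6.10 to 59.102 CPM in HepABC fish, against 1.99 to 3.74 CPM in NonTg fish (log2 fold change 2.74 ± 0.64, adjusted p = 0.00767), with 317E11 far above the other HepABC fish. Among genes of iron storage and transport 5 of 18 tested genes were lower and 13 were not called (median log2 fold change -0.69, and with library size alone 6 higher and 5 lower).

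Genes of sugar metabolism went both ways. In gluconeogenesis and glycogen genes 1 of 21 tested genes was higher, 13 were lower and 7 were not called (median log2 fold change -1.32, and with library size alone 5 higher and 7 lower). In glycolysis 6 of 25 tested genes were higher, 7 were lower and 12 were not called (median log2 fold change -0.12, and with library size alone 12 higher and 3 lower), with 4 higher and 3 lower without 317C1 and 317C2, and 5 higher and 4 lower without 317E6 or 317E11. The liver pyruvate kinase PKLR (ENSDARG00000042010) had 2252, 1892, 7345, 6173 and 2517 CPM in HepABC fish, against 2117, 1992, 1289, 1346 and 2020.1 CPM in NonTg fish. PKLR changed by 1.2 ± 0.40 on the log2 scale (adjusted p = 0.0363), with overlapping groups, and this call was lost in each fit without a single NonTg fish and without 317E9 or 317E10 (adjusted p from 0.0515 to 0.0884). ldhbb (ENSDARG00000071076), a lactate dehydrogenase, had 472 to 978 CPM in HepABC fish, against 1104 to 2769 CPM in NonTg fish. ldhbb changed by -1.5 ± 0.28 on the log2 scale (adjusted p = 0.00252).

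Of the glycogen genes, UGP2 (ENSDARG00000005578), which makes UDP-glucose, had 50.8, 33.4, 209, 58.4 and 52.6 CPM in HepABC fish, against 249, 398, 456, 493 and 447 CPM in NonTg fish. UGP2 changed by -2.34 ± 0.48 on the log2 scale (adjusted p = 0.00384). PPP1R3C (ENSDARG00000071005), which targets a phosphatase to glycogen, had 86.3, 75.1, 454, 64.6 and 104 CPM in HepABC fish, against 1150.1, 929.6, 792, 696 and 644 CPM in NonTg fish. PPP1R3C changed by -2.43 ± 0.54 on the log2 scale (adjusted p = 0.00607). Fish 317E9 was the highest HepABC fish for both. The glycogen synthase known from mammals as the muscle form, GYS1 (ENSDARG00000016875), was higher, with 18.4, 33.7, 14.2, 22.3 and 16.9 CPM in HepABC fish, against 2.62, 3.29, 1.73, 7.19 and 2.50 CPM in NonTg fish. GYS1 changed by 2.6 ± 0.40 on the log2 scale (adjusted p = 0.000777). The form known from mammals as that of liver, GYS2 (ENSDARG00000004904), was not called (log2 fold change 0.09, adjusted p = 0.771). GYS2 had 286 to 545 CPM in HepABC fish, against 303 to 400 CPM in NonTg fish, above GYS1 in every fish. g6pc1a.1 (ENSDARG00000031616), glucose-6-phosphatase, the last step of glucose release, had 84.4 to 294 CPM in HepABC fish, against 363 to 715 CPM in NonTg fish. g6pc1a.1 changed by -1.71 ± 0.37 on the log2 scale (adjusted p = 0.00473). PCK1 (ENSDARG00000013522), which commits carbon to gluconeogenesis, was not called, with 293, 741, 1561, 2462 and 843 CPM in HepABC fish, against 5086, 5119, 607, 457 and 755 CPM in NonTg fish (adjusted p = 0.336). NonTg fish 317C1 and 317C2 held the highest PCK1 and the other NonTg fish lay within the HepABC range.

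Among genes of the pentose phosphate pathway 2 of 6 tested genes were higher, 1 was lower and 3 were not called (median log2 fold change 0.76, and with library size alone 5 higher and 0 lower). In fatty acid oxidation 1 of 33 tested genes was higher, 18 were lower and 14 were not called (median log2 fold change -0.87, and with library size alone 5 higher and 6 lower). The carnitine palmitoyltransferases that admit fatty acids to mitochondria went opposite ways, as CPT1B (ENSDARG00000058285) had 12.6, 33.1, 347, 33.9 and 89.8 CPM in HepABC fish, against 534, 557, 1233, 464 and 1500.4 CPM in NonTg fish. CPT1B changed by -3.05 ± 0.83 on the log2 scale (adjusted p = 0.0156). CPT1A (ENSDARG00000059770) had 71.98, 58.4, 30.1, 94.03 and 63.2 CPM in HepABC fish, against 36.5, 41.9, 15.9, 15.97 and 20.2 CPM in NonTg fish. CPT1A changed by 1.28 ± 0.36 on the log2 scale (adjusted p = 0.0191). The groups overlapped for CPT1A, where 317E9 lay below 317C1 and 317C2, and not for CPT1B. ACADS (ENSDARG00000030781), a short-chain acyl-CoA dehydrogenase, had 10.05 to 22.6 CPM in HepABC fish, against 71.5 to 121 CPM in NonTg fish. ACADS changed by -2.49 ± 0.25 on the log2 scale (adjusted p = 9.1e-05). In fatty acid synthesis and triglyceride assembly 2 of 21 tested genes were higher, 4 were lower and 15 were not called (median log2 fold change -0.43, and with library size alone 7 higher and 2 lower), with 4 higher and 3 lower without 317C1 and 317C2. ACACB (ENSDARG00000061994), the acetyl-CoA carboxylase that restrains fatty acid oxidation, had 36.95 to 97.4 CPM in HepABC fish, against 184 to 348 CPM in NonTg fish. ACACB changed by -1.81 ± 0.30 on the log2 scale (adjusted p = 0.0012). MID1IP1 (ENSDARG00000019302), which in mammals helps acetyl-CoA carboxylase assemble, had 29.8 to 176 CPM in HepABC fish, against 1.47 to 6.77 CPM in NonTg fish. MID1IP1 changed by 4.31 ± 0.56 on the log2 scale (adjusted p = 0.00034).

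More cholesterol genes were higher than lower, with 15 of 26 tested genes higher, 1 lower and 10 not called (median log2 fold change 1.46, and with library size alone 21 higher and 1 lower). SQLE (ENSDARG00000079946), squalene epoxidase, had 37.1, 9.64, 2.72, 22.1 and 9.97 CPM in HepABC fish and no count in any NonTg fish. This makes SQLE at least 123-fold higher against the floor of 3 counts per library, or 83.8-fold without 317E5 (adjusted p = 0.000761). The summed level of the list overlapped between groups, at 755 to 1427 CPM in HepABC fish, against 411 to 2500.3 CPM in NonTg fish, and 317C1 and 317C2 were its highest fish.

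In bile acid synthesis and transport 3 of 24 tested genes were higher, 15 were lower and 6 were not called (median log2 fold change -1.22, and with library size alone 5 higher and 4 lower). CYP8B1 (ENSDARG00000053068), a sterol 12-hydroxylase of bile acid synthesis, had 46.7 to 76.8 CPM in HepABC fish, against 165 to 358 CPM in NonTg fish. CYP8B1 changed by -2.21 ± 0.28 on the log2 scale (adjusted p = 0.000278). cyp39a1 (ENSDARG00000017982), an oxysterol hydroxylase, was at most 0.295 CPM in any HepABC fish, against 58.9, 46.6, 0.946, 23.3 and 2.98 CPM in NonTg fish. cyp39a1 changed by -7.82 ± 1.23 on the log2 scale (adjusted p = 0.000958), and limma voom did not call it (adjusted p = 0.09). CYP7A1 (ENSDARG00000069018), the rate-limiting enzyme of bile acid synthesis, was not called, with 22.1, 0.328, 3.98, 7.98 and 1.92 CPM in HepABC fish, against 4.83, 22.7, 2.21, 32.3 and 6.89 CPM in NonTg fish (adjusted p = 0.487).

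Amino acid breakdown was lower at many steps after TMM scaling, a balance that turned with library size alone. In this list 1 of 43 tested genes was higher, 18 were lower and 24 were not called (median log2 fold change -0.64, and with library size alone 11 higher and 6 lower). hpda (ENSDARG00000018351), an enzyme of tyrosine breakdown, had 1585, 896, 1632, 843 and 1102 CPM in HepABC fish, against 6738, 8844, 4703, 4927 and 7202 CPM in NonTg fish. hpda changed by -2.42 ± 0.28 on the log2 scale (adjusted p = 0.00018). GCDH (ENSDARG00000098831), of lysine and tryptophan breakdown, had 5.86 to 17.3 CPM in HepABC fish, against 42.2 to 64.9 CPM in NonTg fish. GCDH changed by -2.37 ± 0.28 on the log2 scale (adjusted p = 0.000217). Synthesis showed the other balance, as in serine, asparagine and one-carbon synthesis 6 of 18 tested genes were higher, 1 was lower and 11 were not called (median log2 fold change 0.18, and with library size alone 10 higher and 0 lower). PSAT1 (ENSDARG00000016733), a serine synthesis enzyme, had 9.39, 5.47, 2.46, 11.4 and 60.7 CPM in HepABC fish, against 0.532, 0.520, 0.315, 0.599 and 0.516 CPM in NonTg fish. PSAT1 changed by 5.15 ± 0.85 on the log2 scale (adjusted p = 0.00122), with 317E11 far above the other HepABC fish. The stress-responsive transcription factor atf5a (ENSDARG00000068096) had 14.1 to 29.2 CPM in HepABC fish, against 0.875 to 3.99 CPM in NonTg fish. atf5a changed by 3.10 ± 0.45 on the log2 scale (adjusted p = 0.000583). In the urea cycle and ammonia list 2 of 8 tested genes were higher and 6 were not called (median log2 fold change 0.99, and with library size alone 7 higher and 0 lower).

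Fish break urate down further than humans do. In purine breakdown 1 of 7 tested genes was higher, 2 were lower and 4 were not called (median log2 fold change -0.53, and with library size alone 3 higher and 2 lower). Urate oxidase, uox (ENSDARG00000007024), had 794, 297, 284, 166 and 679.5 CPM in HepABC fish, against 2935, 3120.02, 1098, 1009 and 2184 CPM in NonTg fish. uox changed by -2.22 ± 0.49 on the log2 scale (adjusted p = 0.00568). Its successor in the pathway, uraha (ENSDARG00000100719), which hydrolyses the product of urate oxidase, went the other way with 78.4 to 231 CPM in HepABC fish, against 42.3 to 77.5 CPM in NonTg fish. uraha changed by 1.52 ± 0.29 on the log2 scale (adjusted p = 0.00249). ALLC (ENSDARG00000042562), allantoicase, had 71.8 to 201 CPM in HepABC fish, against 273 to 604.9 CPM in NonTg fish. ALLC changed by -1.66 ± 0.29 on the log2 scale (adjusted p = 0.00172). For purine and pyrimidine synthesis 5 of 18 tested genes were higher and 13 were not called (median log2 fold change 0.47, and with library size alone 14 higher and 0 lower), with 3 higher without 317C1 and 317C2. UMPS (ENSDARG00000012215), which makes UMP, had 6.30 to 18.3 CPM in HepABC fish, against 1.47 to 2.76 CPM in NonTg fish. UMPS changed by 2.57 ± 0.32 on the log2 scale (adjusted p = 0.000252).

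**Figure D3:**
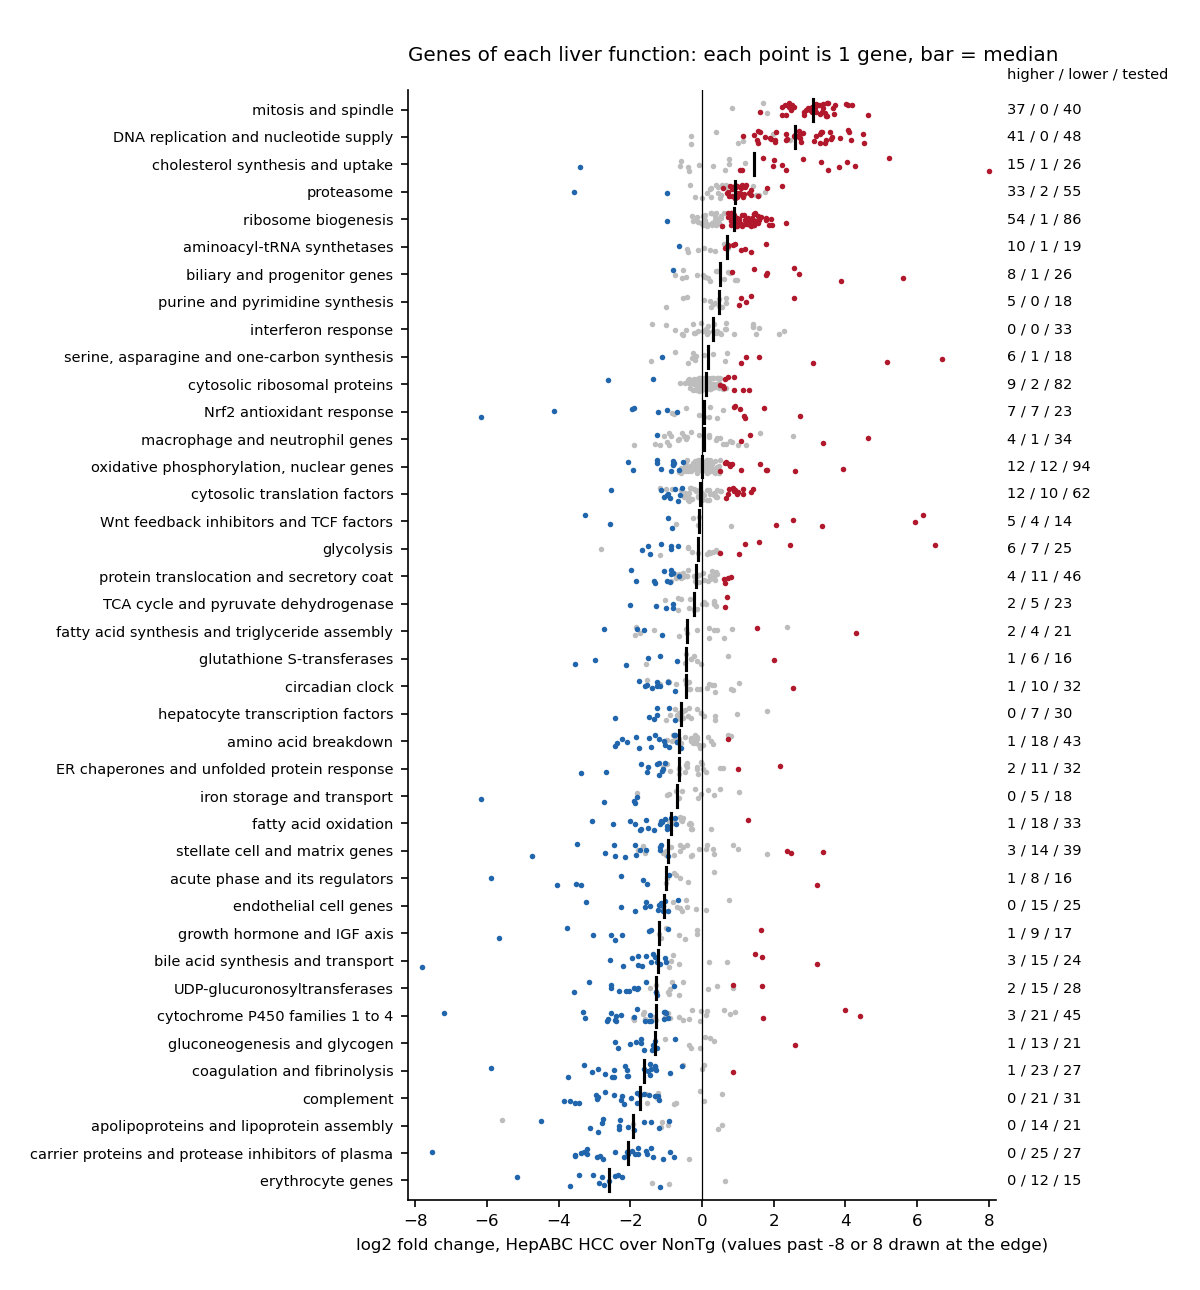
Each row is a list of genes of 1 liver function or cell type, ordered by its median, and each point is the log2 fold change of 1 gene, HepABC HCC over NonTg, on the x axis (values past -8 or 8 are drawn at the edge). Red genes were called higher, blue lower and grey not called, the bar is the median, and the numbers at the right count genes higher, lower and tested, such as 37, 0 and 40 for mitosis and spindle.

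The machinery that makes ribosomes had a larger share of genes higher than the ribosome itself after TMM scaling, while with library size alone nearly all genes of both were higher. In ribosome biogenesis 54 of 86 tested genes were higher, 1 was lower and 31 were not called (median log2 fold change 0.89, and with library size alone 83 higher and 0 lower), whereas among cytosolic ribosomal proteins 9 of 82 tested genes were higher, 2 were lower and 71 were not called (median log2 fold change 0.11, and with library size alone 75 higher and 1 lower), of which 1 was higher and 2 were lower without 317C1 and 317C2. nop2 (ENSDARG00000043304), a methyltransferase of the nucleolus, had 47.5, 76.6, 80.5, 109.8 and 84.7 CPM in HepABC fish, against 13.2, 15.4, 30.2, 23.1 and 21.9 CPM in NonTg fish. nop2 changed by 1.95 ± 0.28 on the log2 scale (adjusted p = 0.000629). Fibrillarin, FBL (ENSDARG00000053912), the methyltransferase of small nucleolar complexes, had 89.2, 149, 167, 189 and 155 CPM in HepABC fish, against 89.4, 57.8, 50.3, 44.5 and 65.4 CPM in NonTg fish. FBL changed by 1.29 ± 0.26 on the log2 scale (adjusted p = 0.00327), and here 317E5 lay just below the highest NonTg fish, 317C1. tcof1 (ENSDARG00000087555), treacle, which promotes transcription of ribosomal RNA, had 6.30 to 15.6 CPM in HepABC fish, against 1.05 to 3.12 CPM in NonTg fish. tcof1 changed by 2.34 ± 0.37 on the log2 scale (adjusted p = 0.000967). RPS12 (ENSDARG00000036875) had 1391 to 3383 CPM in HepABC fish, against 804 to 963 CPM in NonTg fish. Its increase was the largest among ribosomal protein genes called with no overlap between groups and a mean log2 CPM of 2 or more. RPS12 changed by 1.31 ± 0.27 on the log2 scale (adjusted p = 0.00409).

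Among cytosolic translation factors 12 of 62 tested genes were higher, 10 were lower and 40 were not called (median log2 fold change -0.05, and with library size alone 38 higher and 1 lower), and 11 were higher and 5 lower without 317C1 and 317C2. With all fish the shares, 19.4% higher and 16.1% lower, were near those of all genes tested (17.4% and 16.2%). The balance of translation factors turned without 317E6 (8 higher and 12 lower), 317C4 (8 and 10) or 317C5 (8 and 11). For aminoacyl-tRNA synthetases 10 of 19 tested genes were higher, 1 was lower and 8 were not called (median log2 fold change 0.69, and with library size alone 16 higher and 0 lower), with 5 higher without the same pair and 6 without 317E6, 317E11 or 317C2. In the proteasome 33 of 55 tested genes were higher, 2 were lower and 20 were not called (median log2 fold change 0.91, and with library size alone 48 higher and 1 lower). The proteasome chaperone PSMD10 (ENSDARG00000015628) had 11.5 to 24.8 CPM in HepABC fish, against 2.31 to 5.49 CPM in NonTg fish. PSMD10 changed by 2.22 ± 0.29 on the log2 scale (adjusted p = 0.00034).

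The secretory route had more genes lower than higher after TMM scaling. For ER chaperones and the unfolded protein response 2 of 32 tested genes were higher, 11 were lower and 19 were not called (median log2 fold change -0.64, and with library size alone 6 higher and 3 lower), and 7 were lower without 317E6, 317E10, 317C4 or 317C5. For protein translocation and the secretory coat 4 of 46 tested genes were higher, 11 were lower and 31 were not called (median log2 fold change -0.17, and with library size alone 25 higher and 3 lower). P4HB (ENSDARG00000105116), a protein disulfide isomerase, had 125, 122, 131, 97.9 and 97.3 CPM in HepABC fish, against 541, 581, 826, 677 and 1023 CPM in NonTg fish. P4HB changed by -2.67 ± 0.23 on the log2 scale (adjusted p = 4.9e-05). ERO1B (ENSDARG00000103915), which reoxidizes such isomerases, had 6.90 to 22.8 CPM in HepABC fish, against 113 to 156 CPM in NonTg fish. ERO1B changed by -3.39 ± 0.31 on the log2 scale (adjusted p = 5.7e-05). Both were named on the condition that the groups did not overlap. SEC61A1 (ENSDARG00000021669), the channel into the ER, had 152 to 279 CPM in HepABC fish, against 518 to 1144 CPM in NonTg fish. SEC61A1 changed by -1.98 ± 0.28 on the log2 scale (adjusted p = 0.000513). Of the other ER genes, HSPA5 (ENSDARG00000103846) and XBP1 (ENSDARG00000035622) were not called. HSPA5 had 69.4 to 142 CPM in HepABC fish, against 57.6 to 192 CPM in NonTg fish (log2 fold change -0.01, adjusted p = 0.98). XBP1 had 188 to 434 CPM in HepABC fish, against 92.5 to 520 CPM in NonTg fish (log2 fold change 0.01, adjusted p = 0.986). The cytosolic heat shock list was mixed, as 7 of 28 tested genes were higher, 6 were lower and 15 were not called (median log2 fold change 0.27, and with library size alone 15 higher and 2 lower), its balance turned without 317E6, 317C2, 317C4, 317C5 or 317C8, and 4 were higher and 6 lower without 317C1 and 317C2.

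After TMM scaling most genes of mitochondrial respiration were not called. Of its nuclear genes 12 of 94 tested genes were higher, 12 were lower and 70 were not called (median log2 fold change 0.01, and with library size alone 63 higher and 1 lower), and 6 were higher without 317E6 or 317E11. Higher and lower genes each made up 12.8% of the nuclear genes tested, below the 17.4% and 16.2% of all genes tested. cox4i1l (ENSDARG00000012388) and cox6a1 (ENSDARG00000022438), subunits of cytochrome c oxidase, had 259, 304, 129.7, 69.6 and 289.7 CPM in HepABC fish, against 28.4, 8.58, 8.57, 18.6 and 4.31 CPM in NonTg fish for cox4i1l (log2 fold change 3.94 ± 0.59, adjusted p = 0.00072) and 80.5 to 143 CPM in HepABC fish, against 12.6 to 21.9 CPM in NonTg fish for cox6a1 (log2 fold change 2.58 ± 0.24, adjusted p = 5.7e-05). COX7A2L (ENSDARG00000054907), a subunit-like factor that joins complexes into supercomplexes, had 18.3 to 42.5 CPM in HepABC fish, against 103 to 161 CPM in NonTg fish. COX7A2L changed by -2.06 ± 0.26 on the log2 scale (adjusted p = 0.000316). Of 13 tested genes of the mitochondrial genome 2 were lower (median log2 fold change -0.53). Of these, MT-CO1 (ENSDARG00000063905) had 8480.04, 10544, 14313, 7279 and 13745 CPM in HepABC fish, against 31466, 24561, 13215, 12019 and 21695 CPM in NonTg fish. MT-CO1 changed by -0.92 ± 0.31 on the log2 scale (adjusted p = 0.0398), with overlapping groups, and lost its call in 6 of the 10 fits with a single fish removed, by limma voom and with library size alone (adjusted p = 0.881). In the TCA cycle and pyruvate dehydrogenase list 2 of 23 tested genes were higher, 5 were lower and 16 were not called (median log2 fold change -0.23, and with library size alone 11 higher and 1 lower). MDH1 (ENSDARG00000017772), the cytosolic malate dehydrogenase, had 526, 316, 1603, 474 and 427 CPM in HepABC fish, against 3057, 2271, 2296, 2401 and 3343 CPM in NonTg fish. MDH1 changed by -1.998 ± 0.42 on the log2 scale (adjusted p = 0.00437), with 317E9 nearest the NonTg fish.

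Among transcription factors of hepatocytes 7 of 30 tested genes were lower and 23 were not called (median log2 fold change -0.60, and with library size alone 7 higher and 1 lower). HNF4A (ENSDARG00000021494), a master regulator of hepatocyte genes, was not called, with 106, 94.6, 176, 124 and 111 CPM in HepABC fish, against 207, 316, 138, 136 and 197 CPM in NonTg fish (adjusted p = 0.0699), although it was called without 317E9 (log2 fold change -0.83, adjusted p = 0.0376). In AP-1 and immediate early genes 6 of 20 tested genes were higher, 4 were lower and 10 were not called (median log2 fold change -0.06, and with library size alone 9 higher and 3 lower). Besides JUN, ATF3 (ENSDARG00000007823), a stress-induced factor, had 7.73 to 35.2 CPM in HepABC fish, against 1.25 to 7.29 CPM in NonTg fish. ATF3 changed by 2.73 ± 0.51 on the log2 scale (adjusted p = 0.00241). JUNB (ENSDARG00000104773) had 22.7 to 226 CPM in HepABC fish, against 294 to 665 CPM in NonTg fish. JUNB changed by -2.34 ± 0.53 on the log2 scale (adjusted p = 0.00643). This list leaned lower without 317C1 (5 higher and 6 lower) and without 317C5 (4 higher and 5 lower). In the Myc and Max family 3 of 15 tested genes were higher, 1 was lower and 11 were not called (median log2 fold change 0.24, and with library size alone 8 higher and 0 lower), with 1 higher and 2 lower without 317E5, and among p53 targets 1 of 21 tested genes was higher, 3 were lower and 17 were not called (median log2 fold change -0.11, and with library size alone 7 higher and 1 lower).

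In the circadian clock 1 of 32 tested genes was higher, 10 were lower and 21 were not called (median log2 fold change -0.46, and with library size alone 10 higher and 2 lower). BMAL1 (ENSDARG00000035732), the activator of the clock, had 12.7, 6.29, 3.44, 16.6 and 7.71 CPM in HepABC fish, against 1.29, 1.3, 1.47, 2.2 and 1.77 CPM in NonTg fish. BMAL1 changed by 2.54 ± 0.41 on the log2 scale (adjusted p = 0.00102), and was the only member called higher under TMM. The time of day at which each fish was killed is not given in the sources used here. No interferon response gene was called by edgeR among 33 tested, of which 5 had an unadjusted p-value under 0.05, while DESeq2 called 3 and limma voom 2, and edgeR with library size alone had 10 higher. The summed level of this list was 841 to 5409 CPM in HepABC fish, against 1129 to 3325 CPM in NonTg fish.

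Endothelial and erythrocyte genes leaned lower. For endothelial genes 15 of 25 tested genes were lower and 10 were not called (median log2 fold change -1.07, and with library size alone 3 higher and 4 lower). kdrl (ENSDARG00000105215), a receptor for vascular endothelial growth factor, had 18.5, 24.6, 28.02, 29.04 and 19.5 CPM in HepABC fish, against 59.5, 66.2, 68.6, 74.5 and 88.6 CPM in NonTg fish. kdrl changed by -1.58 ± 0.20 on the log2 scale (adjusted p = 0.000268). For erythrocyte genes 12 of 15 tested genes were lower and 3 were not called (median log2 fold change -2.59, and with library size alone 1 higher and 11 lower). The adult globin hbaa1 (ENSDARG00000097011) had 37.9, 23.8, 61.2, 36.5 and 27.1 CPM in HepABC fish, against 257, 280.1, 579.8, 583 and 292 CPM in NonTg fish. hbaa1 changed by -3.42 ± 0.37 on the log2 scale (adjusted p = 0.000126). alas2 (ENSDARG00000038643), which starts heme synthesis in red cells, had 1.8 to 5.60 CPM in HepABC fish, against 13.5 to 54.9 CPM in NonTg fish. alas2 changed by -3.05 ± 0.45 on the log2 scale (adjusted p = 0.000692). In both lists the named genes showed no overlap between groups.

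For stellate cell and matrix genes 3 of 39 tested genes were higher, 14 were lower and 22 were not called (median log2 fold change -0.94, and with library size alone 7 higher and 8 lower). FN1 (ENSDARG00000006526), fibronectin, which hepatocytes secrete into plasma, had 295, 123, 756, 179 and 223 CPM in HepABC fish, against 8969, 11864, 7273, 5378 and 8290.4 CPM in NonTg fish. FN1 changed by -4.73 ± 0.52 on the log2 scale (adjusted p = 0.000149). COL5A1 (ENSDARG00000012593), a fibrillar collagen chain, had 1.76 to 6.30 CPM in HepABC fish, against 26.8 to 77.1 CPM in NonTg fish. COL5A1 changed by -3.49 ± 0.41 on the log2 scale (adjusted p = 0.000208). TAGLN (ENSDARG00000033466), an actin-binding protein of contractile cells, had 150.01 to 319 CPM in HepABC fish, against 14.3 to 28.9 CPM in NonTg fish. TAGLN changed by 3.36 ± 0.28 on the log2 scale (adjusted p = 4.1e-05). The defining stellate markers (hand2, pdgfrb, col1a2 and acta2) summed to 4.84 to 16.3 CPM in HepABC fish, against 13.98 to 44.6 CPM in NonTg fish. In biliary and progenitor genes 8 of 26 tested genes were higher, 1 was lower and 17 were not called (median log2 fold change 0.52, and with library size alone 17 higher and 0 lower). SOX4 (ENSDARG00000098834) had 4.39 to 51.4 CPM in HepABC fish, against 1.17 to 1.98 CPM in NonTg fish. SOX4 changed by 3.88 ± 0.55 on the log2 scale (adjusted p = 0.000533). cldn15la (ENSDARG00000016081), a claudin of tight junctions, had 225, 340.5, 181, 199.5 and 306 CPM in HepABC fish, against 0.190, 7.10, 0.105, 18.4 and 0.111 CPM in NonTg fish. cldn15la changed by 5.60 ± 1.34 on the log2 scale (adjusted p = 0.0084), with 317C2 and 317C5 well above the other NonTg fish. Both were also the highest NonTg fish for the enterocyte markers fabp2 (198 and 556 CPM) and vil1 (23.5 and 95.02 CPM). HepABC fish had 6.5 to 69.9 CPM of fabp2 and 0 to 4.29 CPM of vil1. Which cells the cldn15la counts come from was not tested. The biliary markers (anxa4, krt18a.1, epcam and sox9b) summed to 4033 to 7387 CPM in HepABC fish, against 861 to 2133 CPM in NonTg fish, and of these krt18a.1 was the one called. Most of the difference in the sum lay in krt18a.1, with a mean of 4439 CPM in HepABC fish, against 686 CPM in NonTg fish. Which cells the krt18a.1 counts come from was not tested.

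In macrophage and neutrophil genes 4 of 34 tested genes were higher, 1 was lower and 29 were not called (median log2 fold change 0.06, and with library size alone 11 higher and 0 lower), but 3 were higher and 9 lower without 317C1 and 317C2. The granulin grna.1 (ENSDARG00000089362) had 15.96 to 115 CPM in HepABC fish, against 4.16 to 11.7 CPM in NonTg fish. grna.1 changed by 3.37 ± 0.52 on the log2 scale (adjusted p = 0.000816). Macrophage markers (mpeg1.1, csf1ra, marco and mfap4) summed to 66.9 to 210.3 CPM in HepABC fish, against 97.9 to 468 CPM in NonTg fish, and neutrophil markers to 0.532 to 1.03 CPM in HepABC fish, against 0.405 to 2.02 CPM in NonTg fish. In lymphocyte genes 1 of 14 tested genes was higher, 5 were lower and 8 were not called (median log2 fold change -0.84, and with library size alone 2 higher and 3 lower), and the lymphocyte markers summed to 0.685 to 1.53 CPM in HepABC fish, against 1.156 to 1.69 CPM in NonTg fish.

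Exocrine pancreas genes had the lowest median of any list, as 22 of 23 tested genes were lower and 1 was not called (median log2 fold change -7.69, and with library size alone 0 higher and 22 lower). The trypsin gene prss1 (ENSDARG00000042993) had 2.6, 0.765, 3.28, 4.02 and 6.05 CPM in HepABC fish, against 1786, 402, 530.5, 161 and 6.999 CPM in NonTg fish. prss1 changed by -7.43 ± 1.25 on the log2 scale (adjusted p = 0.00136). ctrl (ENSDARG00000068680), a chymotrypsin-like protease, had 0.157, 0.346, 0.0280, 0.247 and 0.662 CPM in HepABC fish, against 401, 78.7, 136, 40.4 and 0.921 CPM in NonTg fish. ctrl changed by -8.80 ± 1.41 on the log2 scale (adjusted p = 0.00104), which limma voom did not call (adjusted p = 0.0994). The NonTg fish ranged over orders of magnitude, with 317C1 the highest and 317C8 near the HepABC values. The share of counts from this list was 0.0106% to 0.0294% in HepABC fish, against 0.00447% to 0.992% in NonTg fish. In enterocyte genes 7 of 11 tested genes were lower and 4 were not called (median log2 fold change -2.85, and with library size alone 0 higher and 7 lower). Those called include a pair of RBP2 identifiers, ENSDARG00000070038 (94.8 to 729 CPM in HepABC fish, against 1868 to 3723 CPM in NonTg fish) and ENSDARG00000093774 (129 to 348 CPM, against 817 to 1656 CPM). The enterocyte markers fabp2 and vil1 were not called by edgeR (adjusted p = 0.1 and 0.126). They summed to 6.66 to 74.2 CPM in HepABC fish, against 6.5 to 651 CPM in NonTg fish. RBP2 did not follow these markers among NonTg fish. Fish 317C1 had 2419 CPM of ENSDARG00000070038 with 6.5 CPM of fabp2 and 0 CPM of vil1. Fish 317C5, the highest for both markers (556 and 95.02 CPM), had the lowest NonTg level of that RBP2 identifier, 1868 CPM. Which cells the RBP2 counts come from was not tested. The part of pancreas and enterocyte genes in the other results was not tested. Leaving the pancreas list out of the total moved the mean share of plasma protein, acute phase and iron genes to 14.2% in HepABC fish and 35.7% in NonTg fish.

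Shares of all counts divide by the library total, the scale of library size alone, so a smaller share of a large block means larger shares elsewhere. On that scale the composition of liver mRNA differed in a few large blocks. Genes outside all these blocks averaged 46.5% in HepABC fish, against 35.4% in NonTg fish. Secreted plasma proteins, counted here with acute phase and iron genes, took 14.2 ± 2.65% in HepABC fish, against 35.6 ± 4.25% in NonTg fish (SD, n = 5 fish each, here and for the next shares), and the most of any HepABC fish was 17.5%, against a least of 30.5% in NonTg fish. Ribosomal proteins and translation took 19.1 ± 3.10% in HepABC fish, against 9.74 ± 0.390% in NonTg fish, also with no overlap. Their larger share stands beside a median log2 fold change near 0 for ribosomal proteins on the TMM scale, on which each gene is set against the bulk of genes. Nuclear genes of oxidative phosphorylation took 1.49 ± 0.356% in HepABC fish, against 0.825 ± 0.105% in NonTg fish, with 317E9 just below 317C1. Protein folding, secretion, heat shock and proteasome genes took 2.23 ± 0.461% in HepABC fish, against 1.3 ± 0.190% in NonTg fish. Within these, cytosolic heat shock proteins took 1.22 ± 0.365% in HepABC fish, against 0.540 ± 0.0412% in NonTg fish and the proteasome 0.311 ± 0.0890% in HepABC fish, against 0.0947 ± 0.00707% in NonTg fish, without overlap, whereas ER chaperones and translocation took 0.700 ± 0.0512% in HepABC fish, against 0.662 ± 0.197% in NonTg fish, with overlap. Detoxification and Nrf2 genes took 0.886 ± 0.0626% in HepABC fish, against 1.22 ± 0.0637% in NonTg fish. Blood, immune, endothelial, stellate and matrix genes took 0.217 ± 0.00897% in HepABC fish, against 0.781 ± 0.134% in NonTg fish, of which FN1, under both its identifiers, took 0.0426 ± 0.0244% in HepABC fish, against 0.615 ± 0.172% in NonTg fish. Without FN1 the block took 0.174 ± 0.0210% in HepABC fish, against 0.166 ± 0.0575% in NonTg fish, with overlap. Sugar metabolism (4.70 ± 1.24% in HepABC fish, against 4.71 ± 0.856% in NonTg fish) and the mitochondrial genome (4.48 ± 1.27% in HepABC fish, against 3.84 ± 1.98% in NonTg fish) overlapped between groups. Amino acid and nucleotide metabolism also overlapped, at 3.61 ± 0.391% in HepABC fish, against 3.27 ± 0.664% in NonTg fish.

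**Figure D4:**
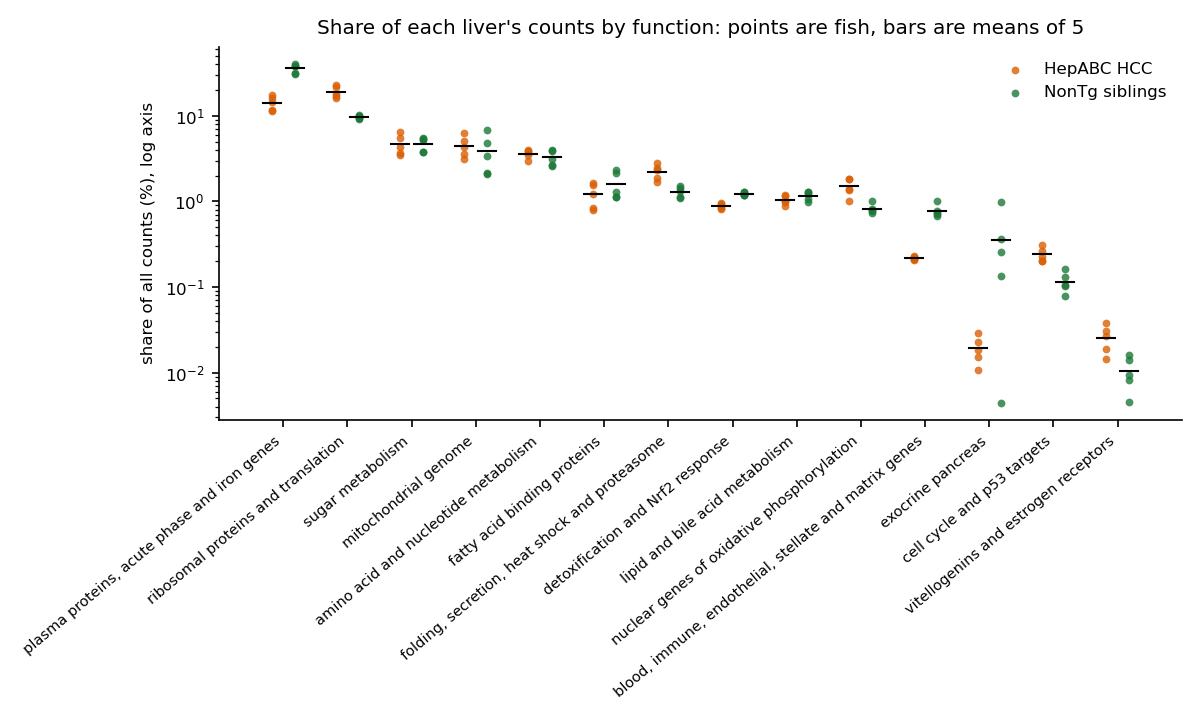
Share of all counts of a library, in percent on a log axis, taken by the genes of each function, with 1 point per fish, HepABC HCC (orange) to the left of NonTg siblings (green), and a bar at the mean of 5 fish. Plasma proteins with acute phase and iron genes average 14.2% in HepABC fish, against 35.6% in NonTg fish, and ribosomal proteins and translation 19.1% in HepABC fish, against 9.74% in NonTg fish.

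The hepatocyte fatty acid binding protein fabp10a (ENSDARG00000038439), whose promoter drives the transgene, had 9045, 3838, 14257, 5204 and 7788 CPM in HepABC fish, against 30754, 27515, 16636, 11919 and 14043 CPM in NonTg fish. fabp10a changed by -1.33 ± 0.39 on the log2 scale (adjusted p = 0.0223). The groups overlapped through 317E9, and the call was lost with library size alone (adjusted p = 0.218), without 317E10, 317C1 or 317C2 (adjusted p from 0.0516 to 0.0541) and without both 317C1 and 317C2 (adjusted p = 0.151). In the family as a whole 2 of 9 tested genes were higher, 3 were lower and 4 were not called (median log2 fold change -0.58, and with library size alone 2 higher and 1 lower).

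HepABC fish were not alike in how far they lay from their siblings. Among genes called lower, the HepABC fish nearest to the NonTg fish was 317E9 for 31.8% of genes and 317E5 for 27.1%, with 12.2% to 14.9% for each of the other 3. Among genes called higher, 317E9 was nearest for 33.7% and 317E5 for 27.8%. Without 317E9 the test called 5730 genes, the most when single fish were removed, where the lowest number was 4524 without 317C8. The map of summed levels shows where single fish depart: mitosis genes were above the NonTg mean in 317C4 and 317C5 and below it in the other NonTg fish, and cholesterol genes were above it in 317C1 and 317C2 and below it in the other NonTg fish. Plasma protein, IGF axis and erythrocyte lists were below the NonTg mean in all 5 HepABC fish.

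**Figure D5:**
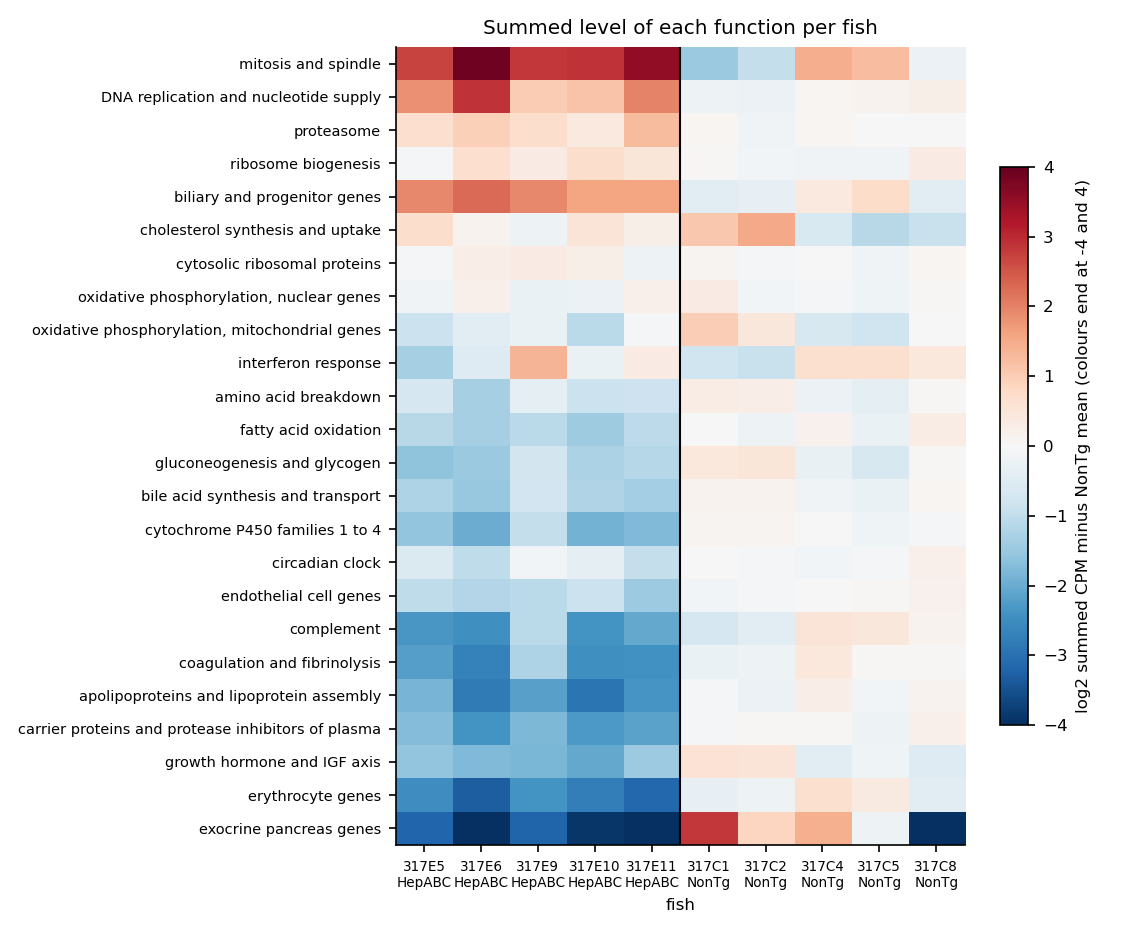
Rows are gene lists and columns are fish, HepABC HCC to the left of NonTg siblings. Colour is the log2 of the summed CPM of the list minus the mean of the 5 NonTg fish, red above and blue below, with colours ending at -4 and 4, and mitosis genes range from 2.7 to 3.905 in HepABC fish and from -1.49 to 1.453 in NonTg fish.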

How the data were processed

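Liver mRNA of 10 zebrafish was measured, 1 library per fish. The authors deposited unnormalized counts of reads per Ensembl gene (32520 identifiers), made, per the methods and the submitters' processing notes, by trimming with cutadapt, aligning paired 150 bp reads from a stranded mRNA kit to GRCz11 with STAR 2.6.1b and counting with featureCounts 1.6.3. No removal of duplicates is described for these libraries, and whether strand was used in counting is not given in the sources used here. Reads of near-identical copies (the vitellogenin, c3a, crp, cyp2k, globin and chymotrypsin-like genes among those named) and of overlapping genes may therefore be split or lost by the counting, and their values are uncertain. The counts of the CreLox experiment entered the alternative with all 20 libraries and no comparison.

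From the counts, R 4.3.3 and edgeR 4.0.16 were used to keep genes by filterByExpr, scale by TMM and fit the 10 libraries with a mean per group (glmQLFit and glmQLFTest), with Benjamini-Hochberg adjustment over all 15864 genes tested and a threshold of 0.05. This test was also tried on simulated data. The standard error of a log2 fold change is its size divided by the square root of the F statistic. CPM use TMM-scaled library sizes, at which 3 counts correspond to 0.0547 to 0.158 CPM, and a group with at most 3 counts in every library was set to this floor for a lower bound of the fold, which covers counting error only, since read counts without molecular identifiers do not count independent molecules. Libraries were checked for duplicates by a chi-square test of their counts, and the closest pair still differed (63.3 per degree of freedom).

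Symbols were taken from the reference tables for 29201 identifiers, 6314 of which share a symbol with another identifier (among the genes named, MYC, GLUL, SQLE, SFRP1, GCDH, PPP1R3C, UGP2, CYP8B1, F7, PRDX1, JUNB, SEC61A1, cox6a1, FN1, TAGLN, SOX4, BMAL1, RBP2 and SFXN5), so the identifier decides. Of 1331 names in 58 hand-written lists, 1262 matched. The comparison, the lists and the tests were chosen with earlier results of these data known, and no test was run over a list. The genes named come from a rule: key genes of the lists whatever their result, up to 2 increases and 2 decreases per list among called genes with no overlap between groups and a mean log2 CPM of 2 or more, the 6 largest increases and 6 largest decreases overall at a mean log2 CPM of 5 or more, and the 8 most abundant genes of each group. From these, a part is named in the text, and some genes the rule names are not reported here.

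The alternatives were DESeq2 1.42.0's Wald test, its size factors used in edgeR, no TMM factors (library size alone), 2 other filters on low counts (at least 1 count over the libraries, or 10 in each of them), sample-weighted voom from limma 3.58.1, a 2-fold change added to the threshold, all 20 libraries in 1 fit, each fish left out in turn, and shares of counts without exocrine pancreas genes. Leaving out NonTg fish 317C1 and 317C2 together was added after seeing the data.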

Additional observations from a re-analysis of the deposited data

Results flagged for a closer look

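Dixon's test at its 95% critical value of 0.71 for 5 fish was applied to 253 groups of values (levels of most of the named genes, summed levels of lists of other cell types and the clock, and shares of counts, in each group of 5 fish), and 24 groups held a fish beyond it. Chance gives about 1 in 20 for normally distributed values. The test was run on CPM and percent without a log scale, and how often chance flags such values was not tested.

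The fish named most often was HepABC fish 317E9. Of the genes for which it stood above its group, vtg1 is higher in HepABC livers and the others are lower. c3a.1 was at 9095 CPM in HepABC fish 317E9, against 2009.6 to 2813 CPM in the other HepABC fish. FGB was at 4591 CPM in HepABC fish 317E9, against 888 to 1684 CPM in the other HepABC fish. FN1 was at 756 CPM in HepABC fish 317E9, against 123 to 295 CPM in the other HepABC fish. These genes encode secreted plasma or matrix proteins. apof was at 42.7 CPM in HepABC fish 317E9, against 2.42 to 13.2 CPM in the other HepABC fish. UGP2 was at 209 CPM in HepABC fish 317E9, against 33.4 to 58.4 CPM in the other HepABC fish. PPP1R3C was at 454 CPM in HepABC fish 317E9, against 64.6 to 104 CPM in the other HepABC fish. Of these, UGP2 and PPP1R3C serve glycogen. CPT1B was at 347 CPM in HepABC fish 317E9, against 12.6 to 89.8 CPM in the other HepABC fish. MDH1 was at 1603 CPM in HepABC fish 317E9, against 316 to 526 CPM in the other HepABC fish. Both enzymes belong to energy metabolism. vtg1 was at 117 CPM in HepABC fish 317E9, against 0.601 to 12.5 CPM in the other HepABC fish. ugt5b4 was at 6.16 CPM in HepABC fish 317E9, against 1.96 to 3.15 CPM in the other HepABC fish.

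Among the other HepABC fish, 317E11 stood out for genes that were higher or not called. PSAT1 was at 60.7 CPM in HepABC fish 317E11, against 2.46 to 11.4 CPM in the other HepABC fish. The lesser copy of prdx1 (ENSDARG00000058734) was at 59.102 CPM in HepABC fish 317E11, against 6.10 to 13.4 CPM in the other HepABC fish. The lesser copy of GLUL (ENSDARG00000100003) was at 105 CPM in HepABC fish 317E11, against 8.56 to 31.1 CPM in the other HepABC fish. Fish 317E5 stood out for apoa1b, at 17378 CPM in HepABC fish 317E5, against 4741 to 7234 CPM in the other HepABC fish, and for vtg3, at 101 CPM in HepABC fish 317E5, against 0.824 to 24.8 CPM in the other HepABC fish. For SFRP1, 317E6 was apart, at 2.33 CPM in HepABC fish 317E6, against 0.944 to 1.18 CPM in the other HepABC fish.

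In the NonTg group, 317C1 stood out for SFRP1, at 5.89 CPM in NonTg fish 317C1, against 8.06 to 8.58 CPM in the other NonTg fish. Its share of counts from nuclear genes of oxidative phosphorylation was 1.01% in NonTg fish 317C1, against 0.741% to 0.817% in the other NonTg fish. Fish 317C2 stood out for MYC (ENSDARG00000007241), at 404 CPM in NonTg fish 317C2, against 13.04 to 66.3 CPM in the other NonTg fish, and for F7, at 188 CPM in NonTg fish 317C2, against 454 to 528 CPM in the other NonTg fish. The share of counts from blood, immune, endothelial, stellate and matrix genes was 1.01% in NonTg fish 317C2, against 0.671% to 0.768% in the other NonTg fish. FN1 alone took 0.885% in 317C2, and without FN1 the share was 0.127% in 317C2, against 0.118% to 0.237% in the other NonTg fish. Fish 317C5 stood out for g6pc1a.1, at 363 CPM in NonTg fish 317C5, against 660.4 to 715 CPM in the other NonTg fish, for GYS1, at 7.19 CPM in NonTg fish 317C5, against 1.73 to 3.29 CPM in the other NonTg fish, and for SFXN5, at 1.85 CPM in NonTg fish 317C5, against 0.130 to 0.516 CPM in the other NonTg fish.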

How the results depend on the processing

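Library size without TMM called 8809 genes, of which 7955 were higher and 854 lower (90.3% higher), against 5342, 2766 and 2576 (51.8% higher) with TMM. It shares 3620 genes with the TMM calls. Under every other alternative the total, the number higher and the number lower were within 1.5 times those of TMM, with 6733 genes by DESeq2's Wald test, 5918 by limma voom, 6744 with all 20 libraries, 4482 with at least 10 counts in every library and 4657 without 317C1 and 317C2. Leaving out 1 fish gave 4524 to 5730 genes, 2316 to 3112 higher and 2183 to 2618 lower. Of 96 called genes given in the text with an identifier and an adjusted p-value, 88 were called in the same direction in every alternative fit in which they were tested and 8 were not (AXIN2, PKLR, vtg1, IGF1, MT-CO1, fabp10a, cyp39a1 and ctrl). The cause was not tested. TFPI and MT-CO1 were under 2-fold and so fell below the threshold with a 2-fold change added. Both RBP2 identifiers, GYS2, HSPA5, XBP1 and the genes named only as cell markers are not in these counts. With the same genes left out, the genes not called changed sign as follows. With library size alone the log2 fold change was 0.0378 for GLUL (ENSDARG00000099776) and 0.15 for HNF4A. For MYC ENSDARG00000007241 it was 0.00094 by limma voom, between -1.48 and 0.32 with 1 fish left out (above 0 without 317C2 alone) and 0.42 without 317C1 and 317C2, and for PCK1 0.95 without the same pair. No paired analysis was possible because no fish is shared between groups and the labels give no number that pairs them. Depth limits genes near the floor, such as LEF1, vtg3 and SQLE.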
